A study of Drosophila melanogaster with 3 samples.

Results

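Of the 4351 reproducible peaks of the Antp-eGFP fusion protein in whole fly embryos, 1341 had their summit inside an intron. These peaks are the entries of a list called on the pooled reads that the authors kept by the irreproducible discovery rate (IDR), a measure of agreement between replicates. The intronic peaks are 30.8% of the peaks (95% exact binomial interval 29.5 to 32.2, over peaks and for counting error only). A peak was taken by the position of its summit, the base of highest enrichment, and by nothing measured. The summit had to lie more than 500 bp from every annotated transcription start site (TSS), inside the span of an annotated gene and outside every annotated exon, with transposable element models left out. Of the other peaks, 2390 were at promoters (within 500 bp of a TSS), 505 were intergenic and 115 were exonic. All positions are 1-based on the dm6 assembly of the Drosophila melanogaster genome, with Ensembl release 115 gene models.

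The study has 1 group of 3 biological replicates. Each is chromatin of embryos aged 0 to 24 h, males and females together, from the strain AntP-MiMIC-GFP, in which an eGFP exon placed in an intron of Antp makes the gene produce a fusion with green fluorescent protein. All replicates come from this 1 line, and no untagged or input library was analysed here. Chromatin was sonicated to 200 to 800 bp and, per the sample descriptions, pulled down with an antibody against GFP, although a separate label names Antp as the antibody. No read counts come with the deposited peak lists, and sequencing depth is therefore unknown. Embryos of all stages were mixed, so a weak peak in many cells and a strong peak in few cannot be told apart.

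Antennapedia (Antp) is a Hox protein, a homeodomain transcription factor that directs the identity of the thorax. Homeodomains bind short sequences with a TAAT core, and Hox proteins often bind beside the cofactors Extradenticle (Exd) and Homothorax (Hth). In flies many enhancers of developmental genes lie in introns, above all in the long introns near the start of a gene. An intronic peak is therefore a candidate regulatory element, but a peak alone does not show that the host gene responds.

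The sequences of the 5 strongest intronic peaks outside the arm whose sequence is not shown are printed here to show the sequence feature on which the results below turn, which 4 of them carry. Each is a window of the summit and 100 bp to either side, from the + strand of dm6, with the word CACTG or its reverse complement CAGTG in capitals.
ush 2L:480981-481181 (+ strand): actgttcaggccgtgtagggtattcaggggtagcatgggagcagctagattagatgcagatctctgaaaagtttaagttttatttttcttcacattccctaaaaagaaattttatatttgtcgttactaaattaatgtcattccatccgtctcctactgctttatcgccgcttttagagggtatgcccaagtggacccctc
Lk6 3R:11760952-11761152 (+ strand): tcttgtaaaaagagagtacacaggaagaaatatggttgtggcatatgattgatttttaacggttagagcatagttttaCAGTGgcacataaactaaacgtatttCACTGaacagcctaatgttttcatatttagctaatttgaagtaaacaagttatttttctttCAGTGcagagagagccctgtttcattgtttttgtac
CG9663 2L:3302053-3302253 (+ strand): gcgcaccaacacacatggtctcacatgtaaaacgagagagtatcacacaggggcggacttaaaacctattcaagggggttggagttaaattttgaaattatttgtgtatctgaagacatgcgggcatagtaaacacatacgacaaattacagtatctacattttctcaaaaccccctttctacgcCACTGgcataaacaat
CG11050 2L:6612628-6612828 (+ strand): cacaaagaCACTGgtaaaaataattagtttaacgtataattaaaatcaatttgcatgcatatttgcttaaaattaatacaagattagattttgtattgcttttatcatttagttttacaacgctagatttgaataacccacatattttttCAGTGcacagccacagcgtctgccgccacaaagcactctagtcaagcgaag
CG32772 X:4910256-4910456 (+ strand): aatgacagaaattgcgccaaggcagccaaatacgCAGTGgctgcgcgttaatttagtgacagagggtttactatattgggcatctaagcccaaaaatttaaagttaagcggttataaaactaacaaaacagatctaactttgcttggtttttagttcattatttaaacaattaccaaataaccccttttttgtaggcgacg
The windows of Lk6, CG9663, CG11050 and CG32772 hold the word, and that of ush, the strongest of all, does not. The CG11050 intron is only 140 bp long, so its window reaches into the exons on either side. Of its copies, the first lies in the exon just before the intron and the other spans the end of the intron, so neither is purely intronic sequence.

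The same word recurred within single windows. The 3 strongest other intronic peaks with 3 or more copies within 100 bp of the summit were in CG32264, CG32767 and CG1737, shown in the same way.
CG32264 3L:3785125-3785325 (+ strand): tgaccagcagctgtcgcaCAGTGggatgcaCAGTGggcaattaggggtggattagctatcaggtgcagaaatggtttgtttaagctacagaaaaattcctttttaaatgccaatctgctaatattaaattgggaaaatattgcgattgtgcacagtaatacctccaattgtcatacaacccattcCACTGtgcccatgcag
CG32767 X:5083681-5083881 (+ strand): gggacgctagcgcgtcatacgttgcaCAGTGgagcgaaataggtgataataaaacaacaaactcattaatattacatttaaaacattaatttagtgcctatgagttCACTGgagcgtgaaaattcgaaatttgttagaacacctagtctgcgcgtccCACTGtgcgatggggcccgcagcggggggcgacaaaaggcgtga
CG1737 X:11351434-11351634 (+ strand): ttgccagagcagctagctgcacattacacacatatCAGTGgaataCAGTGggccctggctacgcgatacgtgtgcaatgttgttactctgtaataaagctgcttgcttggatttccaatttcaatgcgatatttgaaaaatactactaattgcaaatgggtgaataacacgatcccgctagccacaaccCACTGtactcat
In CG32264 and CG1737 all copies lie away from the centre of the window, and in CG32767 one of them lies at the summit.

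The word CACTG came to notice only when all words of 6 and of 8 bases were ranked by how much more often they occurred at intronic summits than in flanking windows 1 kb away. It was thus chosen from these data, and its values are a description with no test. Of the 2080 words of 6 bases, each counted with its reverse complement, the leading 4 were CACTGT and GCACTG, followed by ACACTG and CACTGA, and of the 15 leading words of 8 bases 11 held CACTG. The word itself occurred in 788 of the 1341 windows, 58.8% (exact interval 56.1 to 61.4), and in 28.1% of the 2496 flanking windows that touched no peak. In the 237779 adjoining windows of the same size that tile all sequence meeting the same rule, the share was 27.4%. In the top entries of replicates 1, 2 and 3 that met the rule, as many entries per replicate as there are peaks, the word occurred in 58.3%, 57.6% and 58.6%. The flanks of the same entries held it in 28.1% ± 0.883 (SD, n = 3). Each replicate was therefore well above its flanks.

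The share was similar at intergenic summits, and both the share and its excess over flanks were smaller at promoters. Flanks of intergenic summits and windows of exonic summits were not counted for the word. Intergenic summits held CACTG in 59.0% of windows and promoter summits in 49.3%, the latter against 31.3% of their own flanks. A pair of similar words showed no such excess: CACTC, which differs in its last base, occurred at 27.7% of intronic summits and in 29.0% of flanks, and GTCAC, with the bases of CACTG in another order, at 17.1% and 17.3%. The share was close to the same on the 5 large arms, from 54.8% on 2R to 61.1% on 3R. Windows with 2 or more copies made up 20.3% of intronic peaks and 4.37% of flanks, and windows with 3 or more made up 4.25% and 0.641%. By strength, the intronic peaks were split into 5 classes of equal size. The class with the highest signal held the word in 66.0% of windows, the class with the lowest signal in 56.9%, and the middle class, with the smallest share, in 51.5%. Among intronic entries of the pooled list far below the peak threshold, below rank 20000, it was in 38.8%.

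Copies of the word were most frequent on either side of the summit and less frequent at the summit itself. In steps of 25 bp its frequency rose from 1.85 copies per kb at 500 bp to the left of intronic summits to 6.06 at 75 bp to the left, fell to 2.33 at the summit, and stood at 5.64 at 75 bp to the right. Intergenic summits showed the same pair of maxima. At promoter summits the frequency had a single broad maximum at the centre. GC content at intronic summits fell to 35.3% at the centre from 44.8% at 275 bp to the left and 44.9% at 225 bp to the right.

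**Figure D1:**
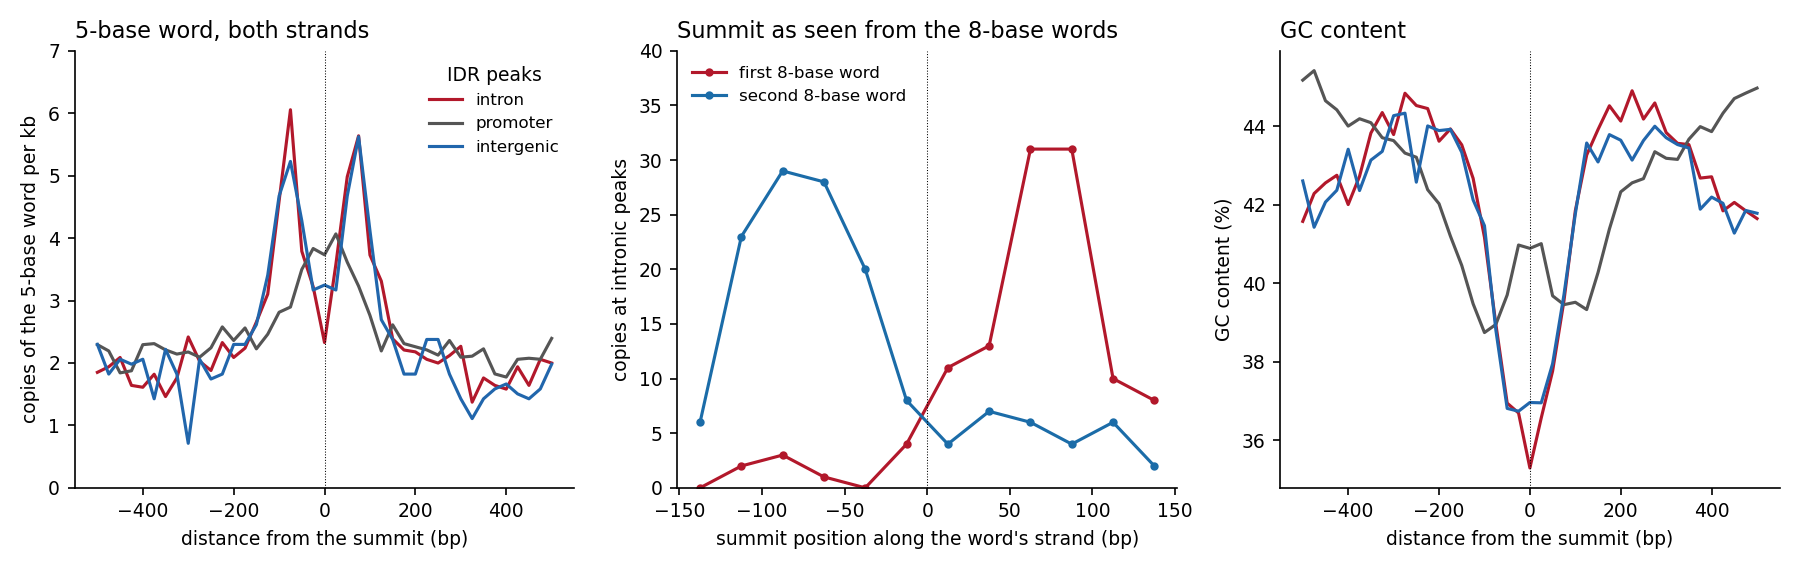
Frequency of the word CACTG on both strands (left) and GC content (right) by distance from the summit in steps of 25 bp, for intronic, promoter and intergenic peaks, and (middle) the number of copies of CACTGAGA (first 8-base word) and CACTGTGC (second) at intronic peaks by the position of the summit along the word's own strand, positive where the word reads toward the summit. The 5-base word has maxima of 6.06 and 5.64 copies per kb at 75 bp to the left and right of intronic summits, and the pair of 8-base words lie on opposite sides of 0.

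A pair of extended forms of the word led the ranking of 8-base words, and they pointed in opposite directions. CACTGAGA occurred in 88 intronic windows, 6.56% (exact interval 5.30 to 8.02), against 0.321% of flanks, 1.51% of promoter summits and 8.51% of intergenic summits. CACTGTGC occurred in 93 intronic windows, 6.94% (exact interval 5.63 to 8.43), against 1.00% of flanks, 3.89% of promoter summits and 4.75% of intergenic summits. Within 150 bp of intronic summits there were 114 copies of CACTGAGA, of which 104 read toward the summit, so that the summit lay downstream of the word on its own strand (91.2%, exact interval 84.5 to 95.7). Of 143 copies of CACTGTGC, 114 read away from the summit (79.7%, exact interval 72.2 to 86.0). The median distance from the word's centre to the summit was 73.5 bp for the first and 75 bp for the second.

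The orientation was the same in each replicate's own list and in other classes of peak. CACTGAGA read toward the summit in 92.9%, 90.8% and 91.9% of its copies at intronic entries of replicates 1, 2 and 3, and in 93.2% at intergenic and 81.5% at promoter peaks. CACTGTGC read away from it in 81.1%, 79.3% and 78.8% in the replicates, in 87.5% at intergenic and in 80.6% at promoter peaks. The plain word CACTG had little direction at intronic peaks, with 53.2% of 1579 copies reading toward the summit. At intergenic peaks the share was 61.3% (exact interval 57.2 to 65.2) and at promoter peaks 47.0% (44.9 to 49.1). Of the similar words without an excess, CACTC read toward intronic summits in 58.3% of 782 copies (54.8 to 61.8) and GTCAC in 50.8% of 425. A lean of a few points is thus not particular to CACTG. With the centre moved 1 kb to the left or right of the same summits only 10 and 9 copies of CACTGAGA were left, and 6 and 3 of them read toward the moved centre. For CACTGTGC 30 and 23 were left, and 12 and 17 of them read away from it. Copies near summits that lie close together are counted for each summit, and the replicates share most of their peaks, so these shares are not independent.

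Sites of both forms are shown with 16 bases to either side, on the strand that reads the word in capitals, at the 4 strongest intronic peaks with each form outside the arm not shown. The first 4 hold CACTGAGA and have their summit 60, 72, 80 and 82 bp downstream.
CG6959 3R:11849890-11849929 (- strand): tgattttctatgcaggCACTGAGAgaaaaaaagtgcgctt
ImpL2 3L:4228290-4228329 (+ strand): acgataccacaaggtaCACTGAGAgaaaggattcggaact
aop 2L:2163712-2163751 (- strand): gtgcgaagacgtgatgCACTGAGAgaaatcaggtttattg
bves X:21059086-21059125 (+ strand): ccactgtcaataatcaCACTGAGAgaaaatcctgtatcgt
The other 4 hold CACTGTGC and have their summit 75, 89, 73 and 82 bp upstream.
Trl 3L:14759381-14759420 (- strand): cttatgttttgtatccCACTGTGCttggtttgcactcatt
CG31635 2L:6647093-6647132 (- strand): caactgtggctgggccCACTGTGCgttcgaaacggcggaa
Csk 3R:11649711-11649750 (+ strand): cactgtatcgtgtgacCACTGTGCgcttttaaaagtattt
CG32264 3L:3785124-3785163 (- strand): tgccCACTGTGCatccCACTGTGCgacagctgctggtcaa
Bases beside the word were counted over 86 copies of CACTGAGA and 89 of CACTGTGC, fewer than the 114 and 143 within 150 bp of intronic summits. Beyond the word itself, these 86 copies of CACTGAGA had G in 59.3%, A in 86.0%, A in 96.5% and A in 84.9% at the next 4 bases. CACTGTGC was preceded by C in 69.7% of 89 copies and was followed by no base in more than 36.0% of copies at any of the next 8 positions. The 40-base sites differ from each other outside these bases. The window of CG32264 holds 3 copies of CACTGTGC, of which 2 lie side by side on one strand and the other lies on the opposite strand beyond the summit.

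Sites known for homeodomains were no more frequent at intronic summits than beside them. The homeodomain core (TAATTA or TAATTG or TAATGA or TAATGG, on either strand) occurred in 592 of 1341 windows, 44.1%, against 45.4% of flanks and 46.8% of the tiling windows. In the replicates it occurred in 43.6%, 44.1% and 42.2% of intronic windows, against 44.7% ± 0.172 (SD, n = 3) of flanks. The mean difference of -1.38 percentage points ± 1.03 had an exact sign-flip permutation p of 0.25 (two-sided, the smallest that 3 replicates allow). With flanks taken 2 kb away the difference turned to 0.731 points. Against promoters the core was more frequent at intronic summits, 44.1% beside 38.2%, by 5.69 points on average over the replicates (SD 2.36, all 3 on one side, exact p = 0.25), a difference that fell to 0.375 points in windows reaching 250 bp to either side. GC content was 37.9% in the intronic windows and 40.9% in their flanks. The palindrome TAATTA, a subset of the core, occurred in 12.2% against 14.3% of flanks, with the replicates 2.01 points below their flanks on average (SD 1.13). The composite site of Exd with a Hox protein (TGATNNAT) occurred in 13.3% of windows and 13.3% of flanks.

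The DRE, Ohler1 and E-box sites differed more between intronic and promoter peaks than between intronic peaks and flanks, and the Scalloped site did not. The DRE (TATCGATA), a site of housekeeping promoters bound by DREF, was in 3 intronic windows, 0.224%, and in 8.41% of promoter windows. The replicates gave 0.276% ± 0.0367 for introns and 8.51% ± 0.295 for promoters (SD, n = 3). Ohler1 (GGTCACAC), the core promoter site of M1BP, was in 7 intronic windows, 0.522%, and in 4.69% of promoter windows. The E-box CAGCTG was in 8.20% against 14.7%, while AGATAA, a site of GATA factors, was in 15.4% of intronic windows, 10% of promoter windows and 12.02% of intronic flanks. In each of the 3 replicates the GATA share lay above its flanks, by 3.65 points on average (SD 0.826), which fell to 1.69 in windows reaching 50 bp and to 0.889 in windows reaching 250 bp to either side. GGAATG, a site of the Hippo pathway partner Scalloped, went the other way, with 6.64% against 10.1% of flanks and 7.91% of promoter windows.

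Each of these differences had an exact sign-flip permutation p of 0.25 or more, the smallest possible with 3 replicates, and after adjustment over the 15 motifs none was below 0.3125 against flanks or 0.268 against promoters. The design can therefore pass no motif, and what can be read is whether the 3 replicates lie on one side. Ohler1 read backwards (CACACTGG) overlaps CACTG and was itself at 1.19% of intronic summits against 0.521% of flanks. Further sites were the GAGA factor site GAGAGAG at 4.25% against 4.97% of flanks, the Zelda site CAGGTAG at 1.57% against 0.921%, the AP-1 site TGACTCA at 2.39% against 2.44%, and the Grainy head site AACCGGTT at 0.447% against 0.361%. The repeat CACACACA was at 5.59% against 6.41%, and the DRE read backwards (ATAGCTAT) at 0.298% against 0.240%.

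**Figure D2:**
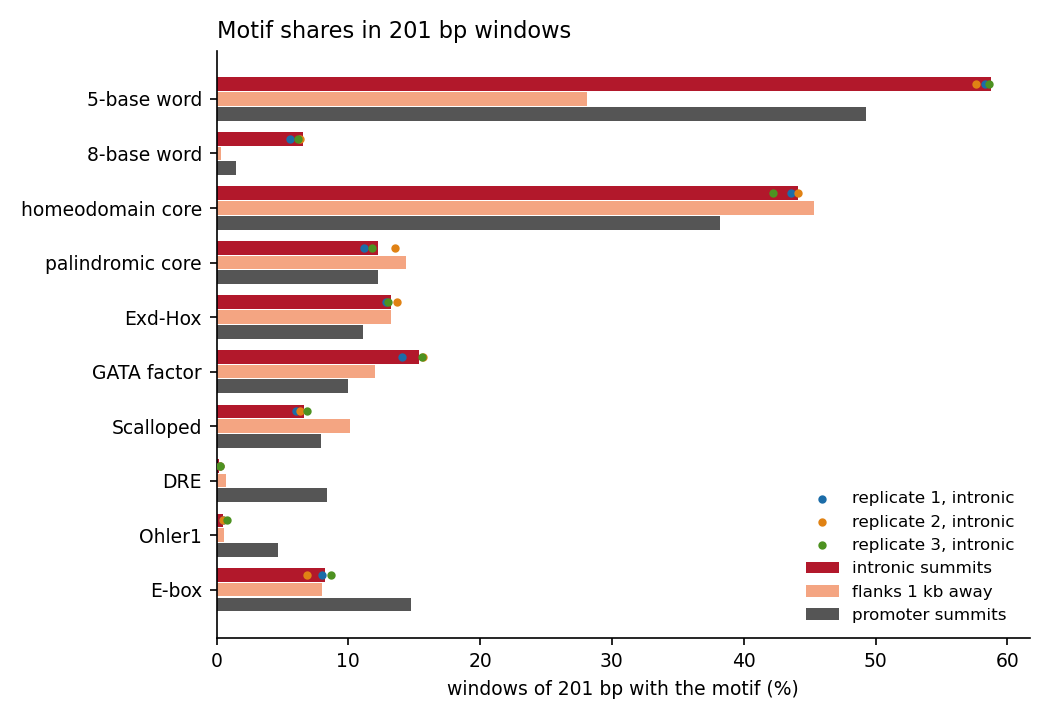
Share of windows of the summit and 100 bp to either side with each motif at intronic summits, in flanks 1 kb away and at promoter summits of the IDR list, with intronic windows of each replicate's top entries as points. The 5-base word is CACTG and the 8-base word CACTGAGA; the 5-base word stands at 58.8% of intronic summits against 28.1% of flanks, while the homeodomain core stands at 44.1% against 45.4%.

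Signals are the authors' own peak values, on a scale set by each list, and serve to rank peaks within a list. The intronic peaks ranged from 103 to 4191 with a median of 166. The strongest lay in the first intron of ush, which encodes a zinc finger cofactor of GATA factors, with the nested gene cbt as the nearest TSS. It was at 1231, 1480 and 1513 in replicates 1, 2 and 3 and took rank 2 of all entries in every replicate. The second strongest lay in the first intron of Lk6, which encodes a kinase of the translation factor eIF4E, at 821, 918 and 974. In both cases replicate 1 had the lowest value and replicate 3 the highest. The median intronic signal had the same order, at 52.5, 56.9 and 61.7 in replicates 1, 2 and 3, so the order is not particular to these peaks.

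The next members were in CG9663 at 703, 769 and 758, in CG11050 at 615, 748 and 729, and in CG32772 at 572, 711 and 654. Adf1, which encodes a DNA-binding activator, followed with 577, 611 and 708. The intron of Raf, the kinase that passes the Ras signal on toward MAP kinase, held a peak at 601, 629 and 615. A peak in overlapping introns of HmgD and its neighbour HmgZ, genes of HMG-box chromatin proteins, was at 514, 568 and 607. The last 4 of the leading 12 lay in CG3726, in Tlk (a chromatin assembly kinase), in CG32486 and in mub (an RNA-binding protein), with signals in the pooled list of 1467, 1437, 1395 and 1308. Within these 12, ush stood above Lk6, and Lk6 above the other 10, in all 3 replicates. The order among the other 10 was not fixed: Raf stood above Adf1 in replicates 1 and 2 and below it in replicate 3. All 12 were among the top entries of every replicate. They were chosen by the signal of the pooled reads of these same replicates, so this is no independent measure.

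**Figure D3:**
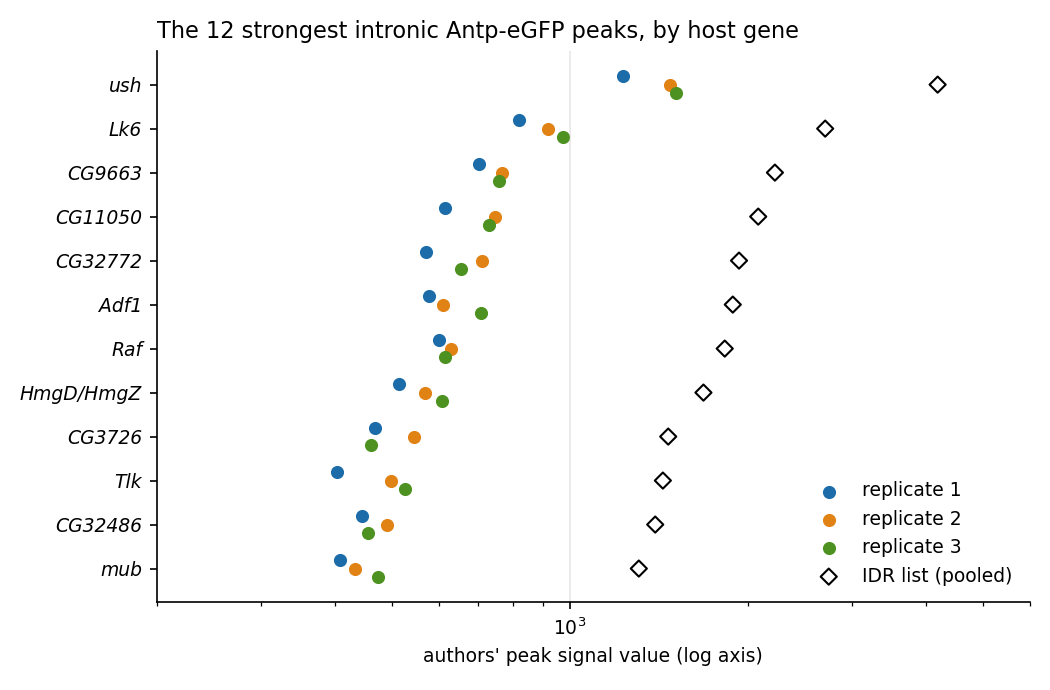
Signals of the 12 strongest intronic peaks in each replicate (filled points) and in the IDR list, which carries the values of the pooled reads (open diamonds), on a log axis. Replicate values of ush lie between 1231 and 1513, above the 821 to 974 of Lk6; pooled values are on a higher scale and are compared only with each other.

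Intronic peaks were slightly weaker than promoter peaks and close to intergenic ones. For peaks matched to a replicate entry with its summit within 100 bp, the median signal of intronic and promoter peaks was 52.5 and 57.2 in replicate 1, 56.9 and 61.8 in replicate 2, and 61.7 and 65.8 in replicate 3. On the log2 scale intronic minus promoter median was -0.12, -0.12 and -0.09. The mean difference was -0.11 ± 0.017 (SD, n = 3, exact sign-flip permutation p = 0.25, two-sided, the smallest possible). Against intergenic peaks it was -0.0073 ± 0.024 (SD, n = 3, exact p = 0.75), with replicate 2 on the other side of 0 from replicates 1 and 3. Introns held 25 of the 100 strongest peaks (exact interval 16.9% to 34.7%) and 34.6% of the weakest 871 (31.4 to 37.8). Among pooled entries below the threshold they held 28.6% to 30%.

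A reciprocal overlap of 50% with the top entries of all 3 replicates was found for 684 of the 1341 intronic peaks, 51.0% (exact interval 48.3 to 53.7), where the share over all peaks was 52.1%. By this overlap the intronic peaks were thus found again about as often as peaks in general. The peak list was built from these replicates, so this share is no independent measure. Per replicate 70.8%, 74.9% and 74.0% were found. In each replicate's own top 4351 entries introns held 1285, 1344 and 1350, or 30.5% ± 0.826 (SD, n = 3). Replicate 1, with the lowest of these, had 231 exonic entries where replicates 2 and 3 had 131 and 140.

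Intronic peaks lay near gene starts. Their median distance to the nearest TSS was 2432 bp, with a range of 501 to 49819 bp, while the median over all sequence that meets the rule was 5615 bp. That sequence amounts to 52.8 Mb, 39.5% of the 6 arms, and carried 25.4 intronic peaks per Mb. Density fell from 62.6 per Mb at 501 to 1000 bp through 43.7, 27.5, 21.4 and 13.9 in the following distance classes to 4.74 beyond 20000 bp. The median signal was 181, 171, 165, 162 and 136 in the first 5 classes and 182 in the farthest, which holds 41 peaks. The share of windows with CACTG was between 56.0% and 62.0% in every class, while CACTGAGA rose from 2.90% of windows at 501 to 1000 bp to 9.24% between 10000 and 20000 bp and 17.1% beyond. The nearest TSS was one of the host gene for 998 peaks, 74.4%, and of another gene for the rest.

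At the 500 bp limit the innermost members were in shep (signal 135) and mwh (signal 108), both 501 bp from a TSS, and the nearest intronic peaks left out were in Mtp at 500 bp (signal 398) and CG42671 at 499 bp (signal 511). There were 78 members in the first 100 bp beyond the limit and 73 non-exonic peaks inside genes in the last 100 bp before it, with median signals of 167 and 177.

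First introns held more than their share of sequence. In the longest transcript of the host gene, 648 of 1336 placed peaks lay in intron 1 (48.5%, exact interval 45.8 to 51.2), whereas such introns hold 28.9% of the sequence that meets the rule. Another 424, 31.7%, lay in intron 2. The introns were long, with a median of 12226.5 bp and a range from the 10th to the 90th percentile of 2172 to 53745 bp. Within the intron 56.8% lay in the part nearer its start. The closeness to a TSS and the place in the first intron are linked, since a first intron begins at a gene start.

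The X chromosome was the densest arm. It carried 350 intronic peaks, 34.3 per Mb of sequence that meets the rule, against 22.1 to 25.8 on 2L, 2R, 3L and 3R. For all peaks, per Mb of the whole arm, X was also the densest, at 37.3 against 29.9 to 34.4 on these 4 arms, and whether the excess is greater for intronic peaks was not tested. In replicates 1, 2 and 3 the density of X was 32.6, 34.8 and 33.8 per Mb, above every other arm in each. The ratio of X to the large arms of chromosomes 2 and 3 was 1.45 ± 0.033 (SD, n = 3; exact sign-flip permutation p of its distance from 1 = 0.25, the smallest possible). Chromosome 4 had 1 intronic peak, 1.74 per Mb.

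**Figure D4:**
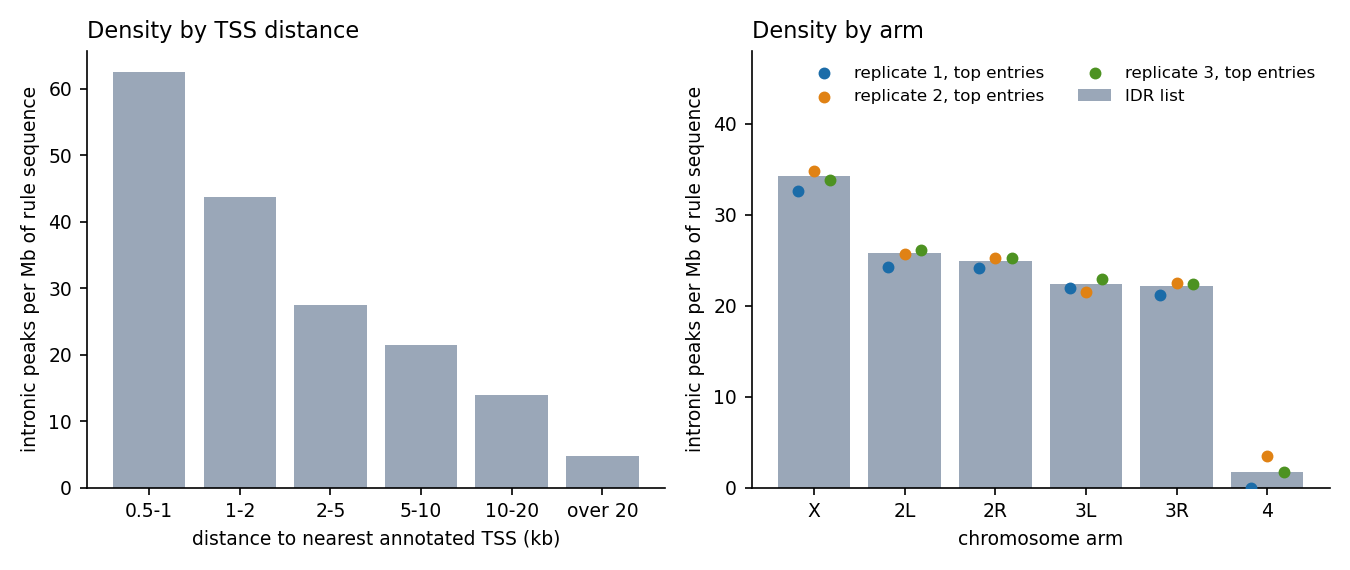
Intronic peaks per Mb of sequence that meets the rule, by distance to the nearest TSS (left) and by chromosome arm (right), with each replicate's top entries as points at the arms. Density falls from 62.6 per Mb at 501 to 1000 bp to 4.74 beyond 20000 bp, and X, at 34.3 per Mb, is above all other arms in the IDR list and in each replicate.

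The 1341 peaks fell in 803 of the 9101 coding genes that hold any sequence meeting the rule, 8.82%, and 29 of them fell only in noncoding genes. A peak counted for each gene that spans it, and 99 peaks lay in 2 or more genes. The share of genes with an intronic peak followed the length of their introns: it was 0.551% where at most 1000 bp met the rule, 9.12% up to 3000 bp, 18.9% up to 10000 bp, 33.3% up to 30000 bp and 45.0% above. Host genes had a median of 12521 bp of such sequence, the others 373 bp. Per Mb, though, long genes were not the densest, with 57.9 peaks in genes of 1000 to 3000 bp and 16.1 in genes above 30000 bp. The gene lists described below differ in this length, so their shares of hosts are not read against 8.82% alone. Whether a list departs from genes of like length was not tested.

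Peaks recurred within single genes. Of the hosts 509 had 1 intronic peak, and 137 had 3 or more and held 554 peaks, 41.3% of all. The most, 12, were in sbb, which encodes a transcriptional corepressor and has 56055 bp of rule sequence. With 11 each followed shn, a zinc finger factor of the Dpp pathway, in 42956 bp, CG1677 in 90795 bp, and kirre, an adhesion molecule of myoblast fusion, in 333203 bp. Raf had 10 in 34133 bp, ush 9 in 49946 bp, tara (a factor of the trithorax group) 9 in 29324 bp, and the nuclear receptor gene Hr4 8 in 50289 bp. Per length these 8 ranged from 0.330 peaks per 10 kb in kirre to 3.07 in tara. Of the 14 intronic peaks in lncRNA:CR44357, 12 also lie in coding genes, CG1677 among them. The strongest peaks in CG1677 lay in its intron 2, of 73902 bp, and had their nearest TSS at other genes. It was at CBP for the strongest and at unc-119 for the next, so a place in CG1677 does not assign them to it.

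Signals within these genes were unequal. In Raf the strongest was 1829 and the weakest 107 in the pooled list. In ush the strongest was 4191 and the next 344, and in shn the range was 104 to 284. The ush peak at 2L:485878 was at 108, 52.0 and 184 in replicates 1, 2 and 3, a wider spread in proportion than that of the strongest ush peak. Of all intronic peaks 329, 24.5%, had another within 2000 bp, while the median gap along the arms was 29399 bp.

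**Figure D5:**
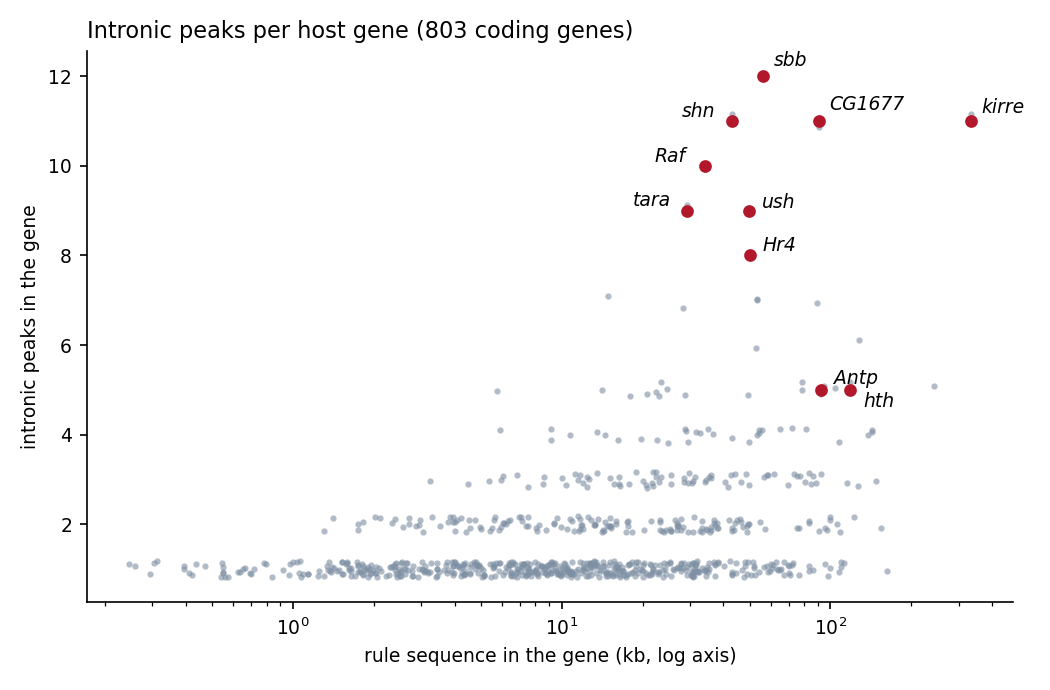
Number of intronic peaks in each of the 803 coding host genes (vertical jitter added) against the sequence in the gene that meets the rule, in kb on a log axis. The 8 genes with the most peaks and, with 5 each, Antp and hth are marked; sbb has 12 and tara, with the least sequence of the 8, has 9.

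Of the 8 Hox genes 5 were hosts, with 11 peaks in all, 40.7 per Mb of their rule sequence beside 25.7 per Mb over all coding genes. Antp itself had 5, in 92384 bp. Its strongest, at 3R:6914579, had a pooled signal of 319, above the upper quartile of 263 over all intronic peaks, and was at 115.1, 88.4 and 114.2 in replicates 1, 2 and 3, and the next, at 3R:6912416 with a pooled signal of 196.1, at 59.6, 59.2 and 84.1. The other 3 in Antp had pooled signals of 170, 150 and 115.2, beside the median of 166 over all intronic peaks. Abd-B, the gene of the hindmost abdomen, had 3, none above a pooled signal of 112, and pb, Ubx and abd-A had 1 each at 116, 136 and 105. For lab, Dfd and Scr no intronic peak was listed. The fusion exon sits in an intron of Antp and is not part of the dm6 sequence.

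The 2 strongest windows in Antp are printed because Antp is the gene of the tagged protein. They are on the + strand of dm6, opposite to the gene, with homeodomain cores in capitals.
Antp 3R:6914479-6914679 (+ strand): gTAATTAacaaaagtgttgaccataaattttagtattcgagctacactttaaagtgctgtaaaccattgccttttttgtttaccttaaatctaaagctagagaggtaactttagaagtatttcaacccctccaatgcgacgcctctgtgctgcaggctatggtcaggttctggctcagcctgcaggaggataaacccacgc
Antp 3R:6912316-6912516 (+ strand): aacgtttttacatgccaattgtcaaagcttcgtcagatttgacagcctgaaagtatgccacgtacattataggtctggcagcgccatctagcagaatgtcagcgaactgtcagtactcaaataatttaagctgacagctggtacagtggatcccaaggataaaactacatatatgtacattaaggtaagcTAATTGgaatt
Each holds 1 core, near an edge of the window. Both lie in intron 2 of the longest Antp transcript and also within the overlapping gene model CG46458.

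Among the partners of Hox proteins, hth had 5 intronic peaks with signals of 104 to 204, the strongest at 62.7, 58.6 and 80.2 in replicates 1, 2 and 3. It was the 1 host of 5 genes in the list of cofactors and trunk identity genes with any rule sequence. The gene of its partner, exd, had none. Of the ecdysone response genes, which carry the steroid signal of moulting, 8 of 11 were hosts with 23 peaks (46.0 per Mb). The strongest lay in the nuclear receptor genes Hr4 (8 peaks, up to 881), Hr3 (3 peaks, up to 620) and EcR (1 peak, 573), the last being the hormone's receptor. The nearest TSS was that of another gene in each case: CR46447 for the strongest Hr4 peak, CG46321 for the strongest Hr3 peak and a tRNA gene for the EcR peak. That Hr3 peak also lies in CG12912 and CG46321, so a place in these genes does not assign the peaks to them.

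Genes of signalling pathways were ordered by role. In the BMP pathway 7 of 10 genes were hosts with 22 peaks, 144 per Mb, of which 11 were in shn. The ligand gene dpp had 1 peak (signal 420), the inhibitor gene sog had 2 (up to 508), the receptor genes tkv and wit had 3 and 1, the transducer gene Mad had 1 (699), and Dad, an inhibitor of the pathway, had 3 (up to 386). The Mad peak was at 202, 239 and 258 in the replicates. In the EGFR and Ras pathway 7 of 14 genes were hosts with 19 peaks, 81.6 per Mb. The ligand genes vn and aos, the latter of an inhibitory ligand, had 2 and 1, the receptor gene Egfr 1, the adaptor gene drk 1, Raf 10, and the ETS factor genes pnt and aop 1 and 3. Thus shn held 11 of the 22 BMP peaks and Raf 10 of the 19 in its list.

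In the Wnt pathway 5 of 12 genes were hosts with 11 peaks (35.9 per Mb). They were the receptor genes fz (3, up to 798), fz2 (2) and arr (3), the kinase gene sgg (1) and the feedback inhibitor gene nkd (2), whereas the ligand gene wg had none. In the Notch pathway 4 of 10 genes were hosts, with 2 peaks in the receptor gene N (up to 443), 3 in the coactivator gene mam, and 1 each in neur and numb, and none was in the ligand genes Delta and Ser. In the Hedgehog pathway 1 of 6 was a host, the receptor gene ptc with 2. In the Hippo pathway 3 of 12 were hosts, ex (409), kibra (310) and wts (153). Of the insulin, TOR and growth genes 3 of 15 were hosts, Lk6, the receptor gene InR (2 peaks, up to 509) and Myc (2 peaks, up to 395). Median rule sequence per gene was 14074.5 bp in the Wnt list, 18994 bp in the Notch list and 1937 bp in the Hedgehog list. It was 3940 bp in the Hippo list and 866 bp in the growth list.

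Lists of tissue and cell fate genes ranged widely. Neural fate genes were hosts in 4 of 8 cases, led by elav (572, a peak that also lies in arg) and brat (568). Of 10 trachea, gut and epidermis genes 6 were hosts with 1 peak each, the strongest in rib (390), grh (276) and sim (173). Of 11 mesoderm and muscle fate genes 3 were hosts, how (242), Mef2 (4 peaks, up to 176) and nau (163). Of 15 antenna, eye and leg genes 3 were hosts, ct (425), Lim1 (311) and bab2 (119), while the antenna and leg genes ss, Dll and dac had no intronic peak. Apart from ush, 1 of the remaining genes in the list of GATA factors and hemocytes was a host, grn at 144.

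Chromatin and structural genes differed among themselves. Of 23 Polycomb and trithorax group genes 7 were hosts with 15 peaks (79.5 per Mb), led by Trl, which encodes the GAGA factor (3 peaks, the strongest at 282, 401 and 402 in replicates 1, 2 and 3), Psc (445) and ph-p (2 peaks, up to 300). None of the 10 insulator and chromosome factor genes with rule sequence was a host, and their median of 257.5 bp of such sequence was the shortest of the 23 lists. Of 24 axon guidance genes 10 were hosts with 17 peaks (19.2 per Mb), the strongest in NetB (265), side (246) and sli (227). Of 16 cell adhesion genes 6 were hosts, led by the integrin gene mew (619), kirre (599) and Fas3 (362).

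Of 9 cell polarity genes 5 were hosts, led by scrib (295), crb (220) and dlg1 (163), and of 14 cytoskeleton genes 5, led by the cofilin gene tsr (760), Moe (202) and shot (141). The lists of ion channel and muscle structure genes had fewer peaks per Mb than the 25.7 over all coding genes. The class of coding genes with the most rule sequence also had fewer, 16.1 per Mb. Whether either list departs from genes of like length was not tested. Of 20 ion channel and synapse genes 4 were hosts, dnc (4 peaks, up to 323), dlg1, Shab (151) and Shal, and of 13 muscle structure genes 1, Tm1 (114), at 12.95 and 6.09 peaks per Mb. Over all coding genes the median strongest signal of a host was 198, and the medians of the lists with at least 2 hosts ran from 116 for Hox genes to 2167 for the 2 hosts of the GATA list. The lists overlap in some members and were drawn up with results of these data known, so the counts describe the lists and are no independent evidence.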

How the data were processed

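Peak lists from chromatin immunoprecipitation with sequencing of Antp-eGFP in 3 biological replicates of 1 group were used, in dm6. Per the descriptions deposited with the samples, peaks were called on each replicate and on the pooled alignments, each with a control file as second input, and the final list was thresholded on the irreproducible discovery rate (IDR). The names of aligner and caller and the thresholds were not given in the sources used here. The signal of each peak is the authors' deposited value, on a scale set by each list, and no read counts come with it, so depth is unknown. The 4351 IDR peaks are the strongest 4351 of the 30000 entries of the pooled list, and the top 4351 of each replicate's 30000 entries were used beside them. Lists in dm3 and the control library were not analysed here.

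Summits were placed with Ensembl release 115 models on the Release 6 genome, whose arm lengths match dm6, and sequences were read from that genome. The sequence that meets the rule was counted base by base. Windows held the summit and 100 bp to either side, and flanks lay 1000 bp to either side and touched no IDR peak. Motifs were counted on both strands. Replicate differences were tested with an exact sign-flip permutation test (two-sided, Benjamini-Hochberg adjusted over 15 motifs), which cannot go below 0.25 with 3 replicates. Shares carry 95% Clopper-Pearson intervals, which cover counting error only. Steps were tested on simulated data (Python 3.11.15, numpy 2.4.6, pandas 2.3.3, scipy 1.17.1, matplotlib 3.10.9).

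Named were the 12 strongest members, the 8 genes with the most members, up to 3 hosts of each of 23 gene lists by strongest member, all Hox genes, and the pairs on either side of the 500 bp limit. Further hosts of signalling pathways and listed genes without a peak were named after their values were seen, as were the words with CACTG. The members, lists and motifs were chosen with earlier results of these data known. Alternatives were other TSS distances, windows, flanks and overlaps, protein-coding models alone, peak midpoints, the stronger peaks alone, another choice of transcript, transposable element models kept, and each replicate left out.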

Additional observations from a re-analysis of the deposited data

How the results depend on the processing

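Over 38 results and 283 alternatives, 244 values were counted as keeping their direction or staying within the replicate spread or interval. Another 15 were counted as moving beyond it, and 24 changed sign. The number of coding hosts has no direction or interval, so its place in these counts says little, and its values are given below. CACTG and its extended forms, their orientation, the X ratio and the density by TSS distance were put to none of these alternatives. The exact test passes no threshold with 3 replicates, so signs and sizes are all that can be compared, and unknown depth limits what weak peaks can show. The cause was not tested for any change of sign.

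The intronic share was 35.3% at a TSS distance of 250 bp, 24.5% at 1000 bp and 29.1% among the stronger peaks, those above the median signal of the list. Density was 27.9 and 21.995 per Mb at these distances, 11.96 per Mb for the stronger peaks, which are fewer, and 27.7 per Mb with transposable element models kept, an alternative chosen after seeing the data. The first intron share was 45.2% at 1000 bp and 45.1% in the transcript with the most exons. Coding hosts, 803 as reported, numbered 918 at a TSS distance of 250 bp, 619 at 1000 bp and 472 for the stronger peaks. They numbered 568 to 591 for members found in both other replicates when 1 replicate was left out. Of these only the 472 was counted as moved. The share found in all replicates was 67.6% with an overlap of 1 bp, 68.4% for the stronger peaks, and 59.1% to 62.1% when 1 replicate was left out. With an overlap of 1 bp it was 69.6% over all peaks and 72.1% for promoter peaks, both above the intronic share.

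The log2 difference to intergenic peaks turned to 0.0815 for the stronger peaks and 0.00503 with protein-coding models alone, and ran from -0.0211 to 0.00234 when leaving out each replicate. Differences from flanks, in percentage points, turned in windows reaching 250 bp to either side for GAGA (5.42), the E-box (2.19), Grainy head (0.247), the CA repeat (3.63) and GC content (0.456). With flanks 2 kb away they turned for the homeodomain core (0.731), Zelda (-0.0346), the CA repeat (0.184) and the DRE reversed (-0.0729, and -0.0459 at a TSS distance of 1000 bp). For the stronger peaks they turned for Ohler1 (-0.150), AP-1 (-0.316) and Grainy head (0.273), and AP-1 ran from -0.0930 to 0.206 when leaving out each replicate. Differences from promoters turned for TAATTA (0.562 at 1000 bp, 0.474 in windows reaching 50 bp to either side), Exd with Hox (-0.417 in the wide windows, -0.575 for the stronger peaks), GAGA (1.501) and Scalloped (4.25), the last pair in the wide windows.

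No paired analysis was possible because the study has 1 group, so no samples of different groups share a replicate number. The sign-flip tests pair classes of windows or peaks within each replicate.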
